A study of Mus musculus with 18 samples.

Results

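Ighg3, the gene of the constant region of mouse IgG3, was examined here together with the 10 kb upstream of it as a contact target of the Igh intronic enhancer Eμ. The region is called the Ighg3 unit below. It spans chr12:113357442-113371232 in mm10, a length of 13.8 kb on the minus strand. It was split at the gene start (113361232) into the gene body and the upstream part, which holds the γ3 switch region and the germline promoter. Members were all fragment ends listed in that span in any library. There were 62 such ends, 13 in the gene body and 49 upstream, of 440025 ends in the whole series and 56916 on chromosome 12. The choice of ends used their position and their being listed, and no read count. Gene boundaries came from RefSeq (GRCm38.p6); exons and introns were not used here.

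The libraries were made by 4C-seq, in which the fragments ligated to 1 chosen bait are amplified and sequenced. The cells were mature CD43-negative B cells of mouse spleen, either Med1 mutant or wild type (WT); Med1 belongs to Mediator, the complex that bridges enhancers and RNA polymerase II. There were 6 groups of 3 libraries: mutant and WT cells cultured for 2 days with LPS, mutant and WT cells cultured for 2 days with LPS and IL4, and mutant and WT cells at rest. All cells were fixed with formaldehyde, and the template was cut with DpnII and then Csp6I. How the Med1 mutation was made, the ages of the mice and whether replicates were separate animals are not given in the sources used here, so p-values measure the spread between these libraries, which may be technical. A 4C library holds no RNA, so neither the loss of Med1 nor the identity of the cells could be checked on marker genes.

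Class switching joins a donor switch region, Sμ, to an acceptor switch region upstream of another constant gene, and it is preceded by germline transcription through the acceptor. In mouse B cells LPS induces germline transcription and switching at Ighg3 and Ighg2b, and IL4 redirects LPS-activated cells to Ighg1 and Ighe. Ighg3 is the first γ gene downstream of Ighm and Ighd, and Eμ lies close to the donor switch region. The 3' regulatory region (3'RR) beyond Igha acts with Eμ at the promoters of the acceptor regions.

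The bait was placed at the chromosome 12 end with the largest mean share of reads over the 12 libraries with counts (chr12:113426025-113426048). That end lay at Eμ, 64793 bp from the Ighg3 gene start and 54793 bp from the nearer edge of the unit. The pair of bait primers is shown because it defines the bait of these libraries. Both are written 5′ to 3′, as the submitters' design text gives them, and neither was aligned to the genome here.
Bait primer 1: tctgtcctaaaggctctgaga
Bait primer 2: gaacacagaagtatgtgtatgga

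The 12 libraries of LPS+IL4 and resting cells gave a read count per end and held 2470497 to 21074434 reads, of which 19242 to 175155 lay in the Ighg3 unit. Levels are percentages of a library's chromosome 12 reads outside the 5 kb around the bait. The 95% Wilson interval of the unit's share was at most 0.0579 percentage points wide, for counting error only and with PCR reads that carry no molecular identifier. Outside mutant LPS+IL4 replicate 2, every mutant library of these was shallower than every WT library. The 6 LPS libraries list covered ends without counts, so their depth is unknown. WT libraries with counts are titled WTKO, and they were grouped by their genotype label, WT. The growth text of WT LPS+IL4 replicate 2 names aCD40 with IL4. Mutant replicates 2 and 3 and WT replicate 3, in both conditions, shared reads at 86 ends of the locus where the other 6 libraries had few. This was the most frequent split of the libraries into 6 and 6 at 50 reads per end. The ends were picked by it, with at least 50 reads in at least 5 of the first 6 libraries and in none of the others. Their pattern is thus set by that choice and was not tested. Of the 86 ends, 2 lie in the unit, at 113366396 and 113367791, and they held at most 3.73% of a library's unit reads.

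The reads of the unit were concentrated in few ends. Of the 62 ends, 36 were covered in all 12 libraries with counts and 1 in none of them, and 52 had a mean of at least 10 reads. The 10 ends with the most reads held 65.5% of the unit's reads on average. Of these, 7 lay upstream and 3 in the gene body. The strongest end, 113366580, lay 5.35 kb upstream of the gene start and held 12.4% of the unit's reads. It faces 113366552, the third strongest with 8.48%, across a single DpnII site. The second strongest, 113368722, lay 7.49 kb upstream with 9.15%, and the fourth, 113366990, lay 5.76 kb upstream with 7.92%. These 4 ends thus all lay between 5 and 10 kb upstream, on the side of the unit nearer the bait.

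The 3 gene body ends among the 10 were 113360338 (5.92% of the unit's reads), 113360956 (5.25%) and 113360662 (4.12%), all within 1 kb of the gene start. Within 5 kb upstream lay 113361441 (4.34%), 113365498 (4.12%) and 113363092 (3.78%). The ends pair up at 32 DpnII sites, and 30 sites had both sides listed. At 20 of those 30 one side held over 90% of the pair's reads, so neighbouring ends differed far more than groups did. The longest stretches without a listed end were 113363326 to 113365053 (1728 bp, upstream), 113357821 to 113359380 (1560 bp, in the gene body) and 113362140 to 113363091 (952 bp, upstream). No contact can be read from these files in those stretches.

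**Figure D1:**
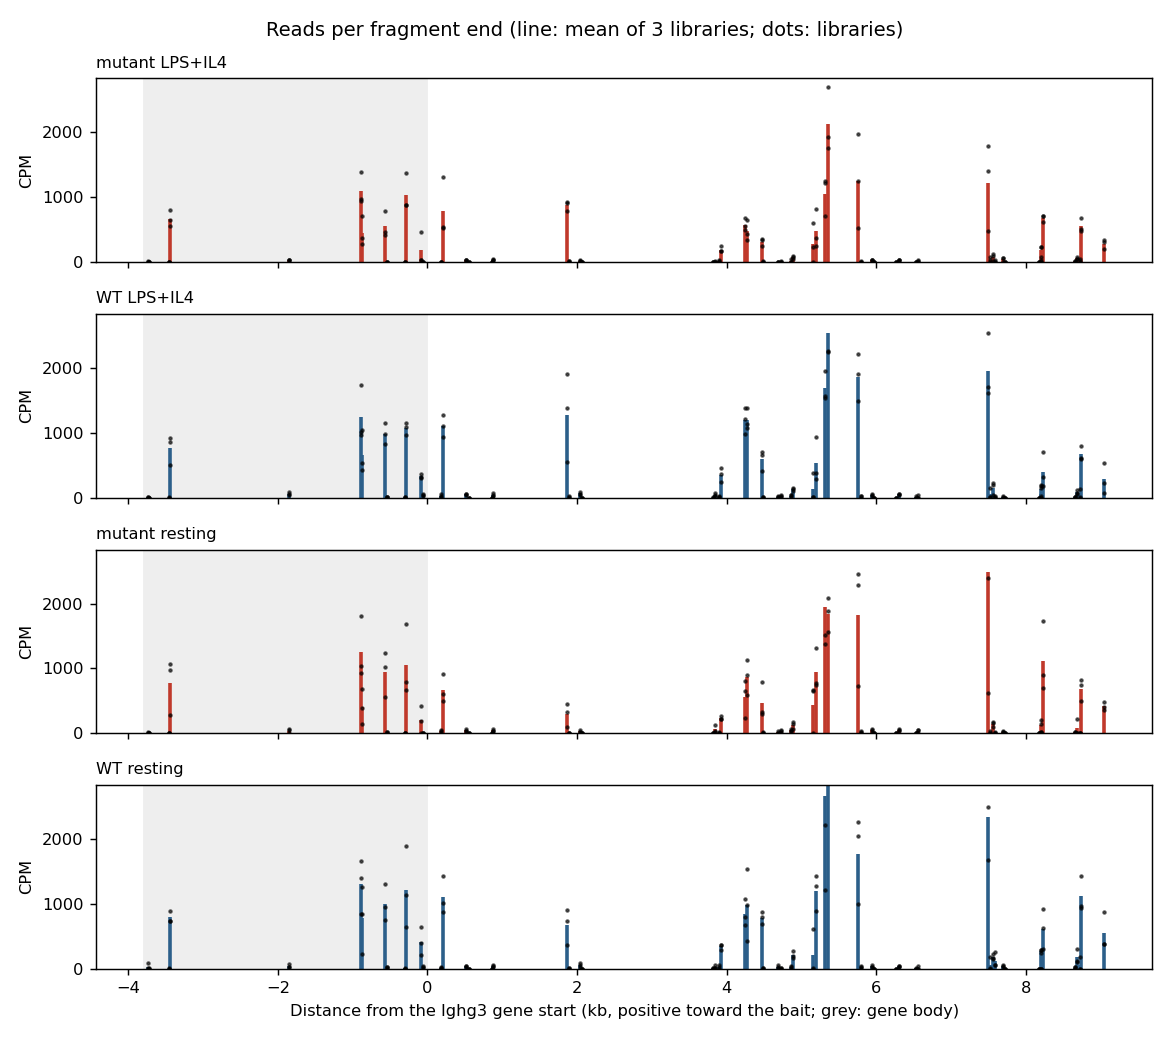
Reads per fragment end in CPM, with the chromosome 12 reads over 5 kb from the bait as the total (y axis), against the distance from the Ighg3 gene start in kb (x axis, positive toward the bait, gene body in grey); lines are means of 3 libraries and dots the libraries of mutant LPS+IL4, WT LPS+IL4, mutant resting and WT resting cells. The tallest lines stand between 5 and 10 kb upstream in all 4 groups, and the dots of a single end often spread widely within a group.

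Levels were compared between regions per kb of length, without correction for distance from the bait or for the number of listed ends. Ighg3 had 62 listed ends over 13.8 kb, Ighg1 95 over 14.0 kb and Igha 28 over 13.1 kb. The constant genes beyond Ighg3 lie farther from the bait than Ighg3 does. In percent of chromosome 12 reads per kb, Ighg3 held 0.117 ± 0.0103 in mutant and 0.161 ± 0.0215 in WT cells after LPS+IL4, and 0.149 ± 0.0140 in mutant and 0.193 ± 0.0164 in WT cells at rest (SD, n = 3 each). It ranked 4 of 9 regions (the 7 constant genes after Ighm, the interval between Ighd and Ighg3, and the 3'RR) in each of the 4 groups. After LPS+IL4 it followed the 3'RR, Ighd and Ighg1. Ighg1 held 0.135 ± 0.0102 in mutant and 0.179 ± 0.0102 in WT cells, and its libraries overlapped those of Ighg3 in both genotypes.

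At rest Ighg3 followed Ighd, the 3'RR and the interval between Ighd and Ighg3. That interval held 0.187 ± 0.0150 percent per kb in mutant cells, where its libraries lay above all those of Ighg3, and 0.201 ± 0.0188 in WT cells, where they overlapped. The regions below Ighg3 were lower without overlap in every group. Next below it stood Ighe after LPS+IL4 (0.0959 in mutant, 0.0915 in WT cells) and, at rest, Ighe in mutant cells (0.0763) and Igha in WT cells (0.0723). Ighg2b, the other gene that LPS targets, stood at 0.0788 and 0.0776 in mutant and WT cells after LPS+IL4 and at 0.0591 and 0.0655 in mutant and WT cells at rest.

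Contacts of the Ighg3 unit were lower in Med1 mutant than in WT cells after LPS+IL4. In the mutant LPS+IL4 libraries the unit held 1.66%, 1.72% and 1.45% of chromosome 12 reads, against 2.53%, 2.19% and 1.94% in the WT LPS+IL4 libraries. In the mutant resting libraries it held 2.27%, 1.90% and 1.98%, against 2.93%, 2.52% and 2.55% in the WT resting libraries. In both conditions all 3 mutant libraries lay below all 3 WT libraries. After LPS+IL4 the log2 change (mutant over WT) was -0.46 ± 0.12 (SE; edgeR quasi-likelihood, adjusted p = 0.0217 over 21 elements of the locus). Of the 21 elements 14.3% were called in that comparison, all of them lower in the mutant. At rest the log2 change was -0.38 ± 0.12, which did not pass with 21 elements (edgeR adjusted p = 0.0568; 9.52% called, 4.76% lower). It did pass among the 17 elements that do not overlap each other (edgeR adjusted p = 0.0161), a choice made after the data were seen. It also passed without mutant resting replicate 1 (edgeR adjusted p = 0.0149) or WT LPS+IL4 replicate 1 (0.0392), without 3'RR reads in the library size (0.031), with the reads from 2 kb of the bait on (0.0444) and without the shared ends (0.0279).

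Over both conditions, the exact permutation test of genotype within conditions gave a mean log2 difference of -0.42 and p = 0.005, the smallest that 400 arrangements can give. Adjusted over the 21 elements that exact p was 0.0525, and 0 elements passed. With covered ends in place of reads the mean log2 difference was -0.02 (exact permutation p = 0.84), that after LPS+IL4 -0.12 (edgeR adjusted p = 0.988) and that at rest 0.05 (0.892). Of the 62 unit ends 36 were covered in all 12 libraries, so this measure is near its ceiling. Its divisor, the covered ends of chromosome 12, ran from 7221 to 15660. It could therefore hardly show a change of reads, and the ceiling also limits the covered-end values of the parts and ratios below. The LPS+IL4 call was lost without mutant LPS+IL4 replicate 1 (edgeR adjusted p = 0.0662), replicate 2 (0.0673) or replicate 3 (0.0962), and without WT LPS+IL4 replicate 1 (0.0935). It was also lost with TMM factors (edgeR adjusted p = 0.0581), with DESeq2 (-0.42, adjusted p = 0.0517) and with a library size without the 3'RR (-0.39, edgeR adjusted p = 0.0731). It was kept without the aCD40-labelled WT LPS+IL4 replicate 2 (-0.47, edgeR adjusted p = 0.0441). Among the 6 libraries with few reads at the 86 shared ends, the log2 change was -0.51 after LPS+IL4 and -0.26 at rest. Among the other 6 it was -0.29 after LPS+IL4 and -0.39 at rest. In each set 1 of the genotypes had only 1 library per condition, so these values only describe. With the set as a block the log2 change was -0.40 after LPS+IL4 (edgeR adjusted p = 0.00924) and -0.33 at rest (0.037), and both passed.

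**Figure D2:**
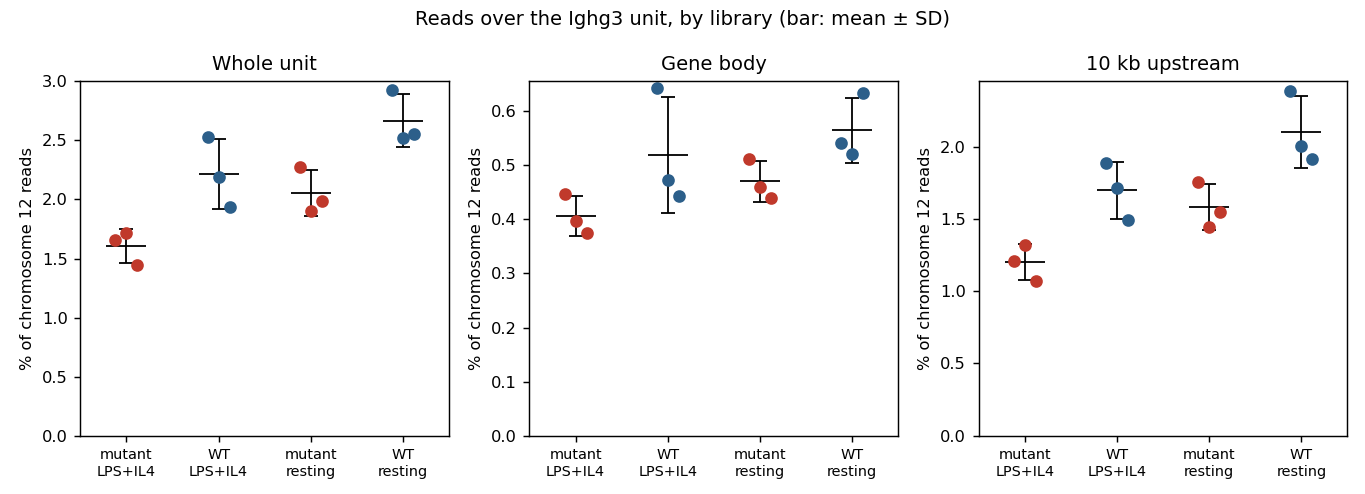
Reads over the Ighg3 unit, its gene body and its 10 kb upstream part, as percent of the chromosome 12 reads over 5 kb from the bait (y axes from 0, each panel with its own scale), for 3 libraries of each group (dots) with the mean ± SD (bars). Every mutant dot of the whole unit and of the upstream part lies below every WT dot of the same condition.

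The upstream part carried the called changes. It held 1.20% ± 0.124 in mutant against 1.70% ± 0.196 in WT cells after LPS+IL4, and 1.58% ± 0.162 in mutant against 2.10% ± 0.251 in WT cells at rest (SD, n = 3 each). The log2 change (mutant over WT) was -0.50 ± 0.12 after LPS+IL4 (edgeR adjusted p = 0.0011 over 15 parts of constant gene units, 13.3% of them called). At rest it was -0.41 ± 0.12 (edgeR adjusted p = 0.00549; 20% called, 13.3% lower). The gene body held 0.406% ± 0.0366 in mutant against 0.519% ± 0.108 in WT cells after LPS+IL4, and 0.471% ± 0.0377 in mutant against 0.565% ± 0.0603 in WT cells at rest. Its log2 changes were -0.35 ± 0.19 and -0.26 ± 0.19, and neither passed in edgeR (adjusted p = 0.291 and 0.323). DESeq2, which used its own size factors over the parts, called the first (-0.47, adjusted p = 0.0489).

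That a call fell on one side of the gene start only does not show that the sides differ. The upstream part took 74.7% ± 1.95 of the unit's reads in mutant and 76.7% ± 1.94 in WT cells after LPS+IL4, and 77.0% ± 1.11 in mutant and 78.7% ± 3.24 in WT cells at rest. The difference of -1.85 points between genotypes had an exact permutation p of 0.17, and 0.025 without WT resting replicate 3. With covered ends it turned to 0.50 points (exact permutation p = 0.505). The fit over the 15 parts shared its spread strongly, with 109.2 degrees of freedom against 13.02 for the unit's fit. By exact permutation over conditions the upstream part differed by -0.45 (log2) and the gene body by -0.30, each with an adjusted exact p of 0.075 over the 15 parts. In edgeR the upstream call at rest did not hold without mutant resting replicate 3 (adjusted p = 0.0579) or WT resting replicate 1 (0.0692), nor in DESeq2 (-0.34, adjusted p = 0.12). After LPS+IL4 it was lost without WT LPS+IL4 replicate 1 (edgeR adjusted p = 0.0774).

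Activation with LPS+IL4 went with fewer contacts of the unit in mutant cells. The unit fell to 1.61% ± 0.143 in mutant LPS+IL4 cells, against 2.05% ± 0.194 in mutant resting cells, and the 2 sets of libraries did not overlap. The log2 change was -0.35 ± 0.12 (edgeR adjusted p = 0.0213). Of the 21 elements 66.7% were called in that comparison, 23.8% in the lower direction. WT cells had 2.22% ± 0.297 after LPS+IL4 and 2.67% ± 0.227 at rest, with libraries that overlapped by a margin (2.53% at most after LPS+IL4, 2.52% at least at rest). Their log2 change of -0.27 ± 0.12 did not pass (edgeR adjusted p = 0.0755; 57.1% of elements called, 19% in the lower direction), but it passed without WT LPS+IL4 replicate 1 (-0.37, edgeR adjusted p = 0.0197) and in DESeq2 (-0.46, adjusted p = 0.00228). DESeq2 used its own size factors in place of the chromosome 12 reads. That shifted the median activation change of all elements in WT cells by -0.19. The WT change also passed in edgeR without the shared ends (adjusted p = 0.0495), with the library set as a block (0.033) and with the replicate number within genotype as a block (0.0168). With 5 kb upstream in place of 10 kb the WT change turned to 0.07 (edgeR adjusted p = 0.739). The difference between the genotypes' activation changes was -0.09 ± 0.17 (edgeR interaction, adjusted p = 0.822; 0 of 21 elements, or 0%, called).

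Within genotypes, the exact permutation test of activation gave a mean log2 difference of -0.31 with p = 0.01, and 0.0162 when adjusted over the 21 elements, of which 14 passed. The mutant call was lost without either of 2 libraries, mutant resting replicate 1 (edgeR adjusted p = 0.0878) and mutant LPS+IL4 replicate 3 (0.0855). It was also lost when reads of the 3'RR were left out of the library size (log2 change -0.17, edgeR adjusted p = 0.153) and with 5 kb upstream in place of 10 kb (-0.13, edgeR adjusted p = 0.419). With covered ends in place of reads the log2 change was -0.54 (edgeR adjusted p = 0.00404), but this was a change of the share only. The covered unit ends averaged 53.0 ± 4.58 in mutant LPS+IL4 and 50.3 ± 4.04 in mutant resting libraries. Those of chromosome 12, the divisor, averaged 11761 ± 3641 and 7615 ± 450.3. That value therefore does not show fewer contacts of the unit. The 3'RR itself rose in mutant cells by 0.84 ± 0.13 (log2, edgeR adjusted p = 0.00011) and in WT cells by 0.59 ± 0.13 (0.0015). Its share in this change of the Ighg3 percentage was otherwise not tested.

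Of the parts, the upstream part fell with activation in both genotypes. Its log2 change was -0.40 ± 0.12 in mutant cells (edgeR adjusted p = 0.00714; 46.7% of the 15 parts called, 26.7% lower) and -0.31 ± 0.12 in WT cells (edgeR adjusted p = 0.0378; 46.7% called, 20% lower). The gene body had -0.21 ± 0.19 in mutant and -0.12 ± 0.19 in WT cells, and neither passed in edgeR (adjusted p = 0.291 and 0.639). The mutant change passed in DESeq2 with its own size factors (-0.42, adjusted p = 0.049), and the WT change in edgeR without WT LPS+IL4 replicate 1 (-0.30, adjusted p = 0.0349). By exact permutation over genotypes the upstream part differed by -0.35 (adjusted exact p = 0.0107 over 15 parts) and the gene body by -0.18 (0.184). In mutant cells the upstream call did not hold without mutant resting replicate 1 (edgeR adjusted p = 0.0903) or mutant LPS+IL4 replicate 3 (0.115). In WT cells it was lost without any of 5 libraries: WT resting replicate 1 (edgeR adjusted p = 0.185), WT LPS+IL4 replicates 2 (0.0705) and 3 (0.228), and, through the shared spread, mutant resting replicate 3 (0.0676) and mutant LPS+IL4 replicate 1 (0.0563). It was also lost in DESeq2 (-0.34, adjusted p = 0.0712). The upstream share of the unit's reads differed by -2.15 points with activation (exact permutation p = 0.105, and 0.02 without WT resting replicate 3), and by -0.16 points with covered ends (exact permutation p = 0.825).

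The upstream part was then divided at 5 kb from the gene start. The segment next to the gene held 0.349% ± 0.0390 in mutant LPS+IL4 and 0.355% ± 0.0363 in mutant resting cells, and 0.621% ± 0.129 in WT LPS+IL4 and 0.525% ± 0.103 in WT resting cells (SD, n = 3 each). The segment nearer the bait held 0.852% ± 0.133 in mutant LPS+IL4 and 1.23% ± 0.174 in mutant resting cells, and 1.08% ± 0.102 in WT LPS+IL4 and 1.58% ± 0.206 in WT resting cells. With activation the log2 changes of the segment next to the gene were -0.03 ± 0.20 in mutant and 0.24 ± 0.21 in WT cells. Those of the segment nearer the bait were -0.52 ± 0.15 and -0.55 ± 0.15. With genotype they were -0.83 ± 0.21 after LPS+IL4 and -0.56 ± 0.21 at rest next to the gene, and -0.34 ± 0.15 and -0.36 ± 0.15 nearer the bait.

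None of these 5 kb windows passed. Of 778 windows of 5 kb tested over the locus, 2.44% were called for activation in mutant cells and 2.31% in WT cells, and 0 of the 3 over the unit. For genotype 0 windows were called in either condition. The lowest adjusted p over the unit was 0.0754, for the segment nearer the bait with activation in WT cells. The segment next to the gene had an edgeR adjusted p of 0.701 for genotype after LPS+IL4 and 0.496 at rest. DESeq2 called 1 of the 3 windows for activation in each genotype, and edgeR 1 in WT cells without WT resting replicate 3. The shares of all 778 windows called in these alternatives are not given here, so those counts only describe. In windows of 2.5 kb, again 0 of 6 over the unit passed in edgeR in any comparison (1.35% called over the locus for activation in each genotype, 0% for genotype after LPS+IL4, 0.071% at rest and 0.071% for the interaction), and the largest genotype change was -1.08 ± 0.22 after LPS+IL4 at 2.5 to 5 kb upstream (edgeR adjusted p = 0.39). DESeq2 called 1 of those 6 for genotype after LPS+IL4. Its share over all windows of 2.5 kb is not given here. Of single ends of the locus DESeq2 called 2.56% in that comparison, against 0% by edgeR, so the 1 window only describes. The windows and this division were chosen after the data were seen.

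**Figure D3:**
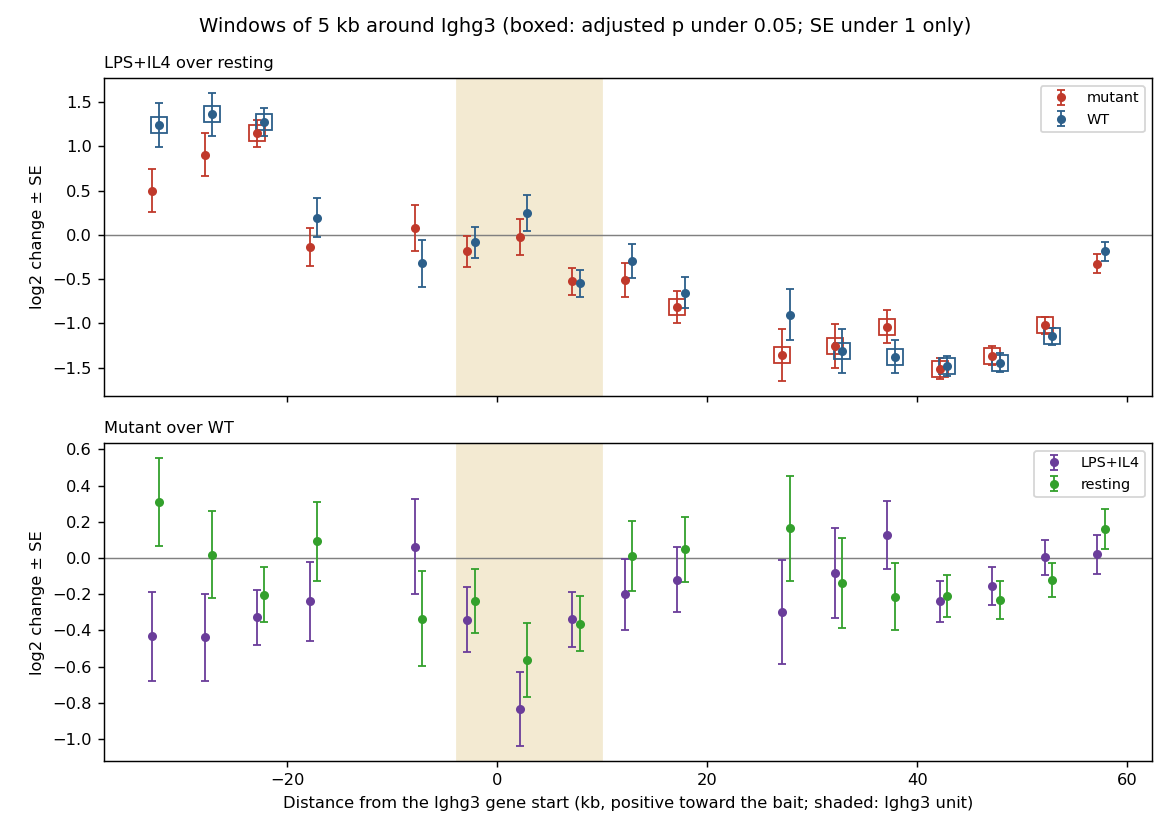
Log2 changes ± SE of windows of 5 kb (y axis) against the distance from the Ighg3 gene start in kb (x axis, positive toward the bait, unit shaded), above for LPS+IL4 over resting in mutant and WT cells and below for mutant over WT cells after LPS+IL4 and at rest; boxes mark windows with an adjusted p under 0.05. With activation the changes run from above 0 over Ighg1 to below -1 toward Ighd, with the 3 windows over the Ighg3 unit between them at -0.55 to 0.24, and no window is boxed in the lower panel.

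The log2 ratio of the segment next to the gene over the segment nearer the bait is free of library size. It was -1.05, -1.63 and -1.16 in mutant LPS+IL4 libraries, against -2.10, -1.72 and -1.53 in mutant resting libraries. In WT LPS+IL4 libraries it was -0.79, -0.53 and -1.12, against -1.54, -1.95 and -1.30 in WT resting libraries. The groups overlapped in mutant cells and did not in WT cells. Over genotypes the ratio was higher after LPS+IL4 by 0.64 (exact permutation p = 0.01; 0.03 adjusted over 6 ratio tests), a pattern noticed in these data and then tested on them. With the number of covered ends in place of reads it was -0.03 (exact permutation p = 0.7). Between genotypes the ratio differed by -0.33 (exact permutation p = 0.09), and by -0.04 with covered ends (exact permutation p = 0.515). This difference passed under 2 of 16 alternatives (lowest exact permutation p = 0.025), among them without WT resting replicate 2 (0.035).

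Single ends were tested over all 5318 ends of the locus with a mean of at least 10 reads. Of the unit's 52 tested ends, 0 were called by edgeR in any of the 5 comparisons. Over all ends 0.32% were called for activation in mutant cells, 0.376% in WT cells, and 0% for genotype and for the interaction. At an unadjusted p under 0.05 edgeR gave 1 unit end for activation in mutant cells, 1 in WT cells, 2 for genotype after LPS+IL4, 1 at rest and 1 for the interaction. Of all ends, 7.45%, 7.92%, 4.51%, 8.1% and 8.14% had such a p in those 5 comparisons, so the unit's share was no higher than that of the locus.

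The directions of the 52 ends were counted without a test, and the share of lower ends over the locus is not given here. For genotype the median change of all ends of the locus was itself below 0 in both conditions. For genotype 43 were lower and 9 higher after LPS+IL4, with a median log2 change of -0.61 against -0.11 over all 5318 ends. At rest 37 were lower and 15 higher (median -0.41 against -0.05). For activation 36 were lower and 16 higher in mutant cells (median -0.39 against 0.15) and 30 lower and 22 higher in WT cells (median -0.19 against 0). Ends on both sides of one DpnII site share that site, so they are not independent.

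The strongest end, 113366580, had the smallest SE of the 10. Scaled to the chromosome 12 reads over 5 kb from the bait, it had 2698, 1761 and 1937 CPM in mutant LPS+IL4 libraries, against 3094, 2264 and 2244 CPM in WT LPS+IL4 libraries. It had 2087, 1562 and 1884 CPM in mutant resting libraries, against 4368, 4355 and 3939 CPM in WT resting libraries. WT resting cells thus stood above all other groups at this end. The log2 change (mutant over WT) was -1.19 ± 0.21 at rest (edgeR adjusted p = 0.456) and -0.25 ± 0.21 after LPS+IL4 (adjusted p = 1). With activation it was 0.21 ± 0.21 in mutant and -0.74 ± 0.21 in WT cells, a difference of 0.95 ± 0.30 (edgeR adjusted p = 0.595). DESeq2 called it at rest, the 1 unit end that it called in any comparison. DESeq2 called 6.15% of all ends for activation in mutant cells, 5.17% in WT cells, 2.56% for genotype after LPS+IL4, 7.09% at rest and 6.07% for the interaction. Without this end the unit's change was -0.27 at rest (edgeR adjusted p = 0.217) and -0.50 after LPS+IL4 (0.0179).

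Its partner across the site, 113366552, spread more widely. It had 714, 1217 and 1245 CPM in mutant LPS+IL4 libraries, against 1540, 1572 and 1956 CPM in WT LPS+IL4 libraries. It had 1371, 2961 and 1521 CPM in mutant resting libraries, against 4530, 2220 and 1222 CPM in WT resting libraries. The groups were apart after LPS+IL4 and overlapped at rest, with log2 changes of -0.67 ± 0.45 and -0.45 ± 0.45 (mutant over WT). The end 113368722 varied most of the 4 strongest: 1786, 1405 and 480.3 CPM in mutant LPS+IL4, 2538, 1709 and 1615 CPM in WT LPS+IL4, 4459, 622.4 and 2398 CPM in mutant resting and 2497, 1675 and 2860 CPM in WT resting libraries. Its mutant resting libraries alone spanned more than any difference between groups.

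At 113365498, 4.27 kb upstream, mutant LPS+IL4 libraries had 337.3, 432.8 and 650.9 CPM, against 1380, 1076 and 1134 CPM in WT LPS+IL4 libraries. The groups were well apart, with a log2 change of -1.34 ± 0.48 (edgeR adjusted p = 0.682). The same end overlapped at rest, with 587.6, 901.5 and 1126 CPM in mutant against 988.1, 427.9 and 1544 CPM in WT libraries (log2 change -0.18 ± 0.47). At 113363092, 1.86 kb upstream, mutant LPS+IL4 libraries had 909.8, 924.4 and 796.0 CPM, against 97.4, 334.2 and 457.2 CPM in mutant resting libraries. That was the largest rise with activation among the 10 strongest ends, 1.56 ± 0.61 on the log2 scale, and it did not pass (edgeR adjusted p = 0.5). In WT cells the same end had 1387, 1903 and 550.4 CPM after LPS+IL4 and 898.8, 367.9 and 736.6 CPM at rest (0.94 ± 0.60).

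The 3 gene body ends among the 10 had genotype changes at rest of -0.05 ± 0.38 at 113360338, -0.09 ± 0.40 at 113360662 and -0.22 ± 0.45 at 113360956. After LPS+IL4 they were -0.18 ± 0.38, -0.83 ± 0.41 and -0.04 ± 0.45. Groups overlapped at all 3 in both conditions except at 113360662 after LPS+IL4, where mutant libraries had 788.1, 424.0 and 463.0 CPM and WT libraries 1147, 832.6 and 989.7 CPM (edgeR adjusted p = 0.682). The end at the gene start's upstream side, 113361441, changed by -0.48 ± 0.43 after LPS+IL4 and -0.72 ± 0.43 at rest, and 113366990 by -0.57 ± 0.52 and 0.04 ± 0.52 (mutant over WT; none passed).

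Ighg3 was also set against Ighg1, the γ gene that LPS with IL4 targets, as a ratio of reads within each library. The ratio was 0.818, 0.987 and 0.757 in mutant LPS+IL4 libraries, against 2.38, 2.09 and 1.86 in mutant resting libraries. It was 0.970, 0.936 and 0.760 in WT LPS+IL4 libraries, against 2.59, 2.69 and 2.83 in WT resting libraries. Every activated library had fewer reads at Ighg3 than at Ighg1 and every resting library had more. The mean log2 difference with activation was -1.46 (exact permutation p = 0.005, the smallest that 400 arrangements can give; 0.03 adjusted over 6 ratio tests). With covered ends in place of reads it was -0.22 (exact permutation p = 0.01). The covered ends of chromosome 12 averaged 11761 in mutant and 11110 in WT LPS+IL4 libraries, against 7615 and 8402 at rest. The Ighg3 ends were near their ceiling, so the covered-end value alone does not show fewer contacts of Ighg3 relative to Ighg1. Ighg1 rose with activation by 0.95 ± 0.11 in mutant and 1.33 ± 0.12 in WT cells (log2, edgeR adjusted p = 9.9e-06 and 2.2e-07).

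Between genotypes the ratio averaged 0.854 ± 0.119 in mutant against 0.889 ± 0.112 in WT cells after LPS+IL4, with libraries that overlapped. At rest it averaged 2.11 ± 0.258 in mutant against 2.70 ± 0.120 in WT cells, without overlap (exact permutation p = 0.1, the smallest that 3 against 3 can give). Over both conditions the log2 difference was -0.21 (exact permutation p = 0.085, and 0.03 when either WT LPS+IL4 replicate 3 or mutant LPS+IL4 replicate 2 was left out), and -0.06 with covered ends (exact permutation p = 0.33). Ighg1 had a genotype change of -0.40 ± 0.11 after LPS+IL4 (edgeR adjusted p = 0.0257) and -0.02 ± 0.11 at rest (0.914), beside -0.46 and -0.38 for Ighg3.

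**Figure D4:**
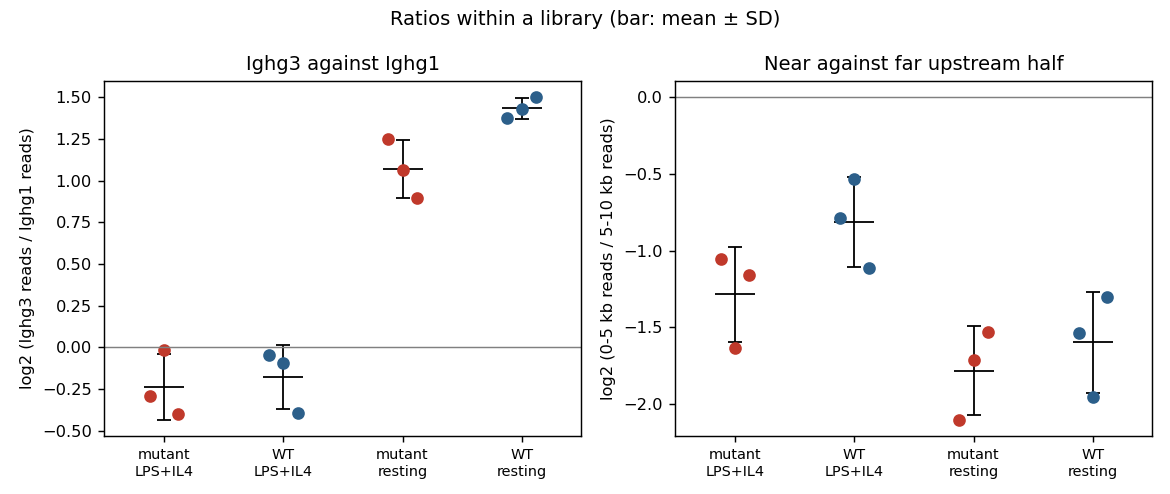
Log2 of Ighg3 reads over Ighg1 reads (left) and of reads 0 to 5 kb over reads 5 to 10 kb upstream of Ighg3 (right) per library (dots) with the mean ± SD (bars), y axes in log2 units, for mutant and WT cells after LPS+IL4 and at rest. On the left all activated libraries lie below 0 and all resting ones above it; on the right the activated groups average higher than the resting ones.

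Across the 12 libraries, the elements whose share went most closely with that of Ighg3 were the 3' flank up to 500 kb from the bait (Pearson r 0.638), the interval between Ighd and Ighg3 (0.626) and Ighd (0.617), of 20 other elements. Libraries of a group share their condition and genotype and all shares have the same denominator, so these values only describe. The interval between Ighd and Ighg3 held 2.95% ± 0.174 in mutant and 3.26% ± 0.129 in WT cells after LPS+IL4, and 6.78% ± 0.545 in mutant and 7.31% ± 0.682 in WT cells at rest. It fell with activation by 1.20 and 1.17 on the log2 scale in mutant and WT cells, and its genotype changes of -0.14 ± 0.08 after LPS+IL4 and -0.11 ± 0.08 at rest did not pass (edgeR adjusted p = 0.352 and 0.52). Of 397 windows of 10 kb the closest started at 112736025 (r 0.828), 115756025 (0.731) and 113006025 (0.724). The lowest r of the elements was that of hs3a, a piece of the 3'RR placed by distance (-0.847).

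In the LPS libraries, the culture that targets Ighg3, the unit could only be described by its covered ends. Of the 62 ends, 47, 49 and 51 were covered in mutant LPS libraries, against 52, 51 and 54 in WT LPS libraries. In mutant LPS+IL4 libraries 49, 58 and 52 were covered, against 54, 55 and 56 in WT LPS+IL4 libraries. In mutant resting libraries 46, 54 and 51 were covered, against 55, 53 and 53 in WT resting libraries. Mutant and WT ranges overlapped in each condition, touching at 51 with LPS. In all, 30 ends were covered in all 18 libraries, 38 in all 6 LPS libraries and 2 in none of the LPS libraries, so the measure is near its ceiling.

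Over the 3 conditions the mutant had 4.66 percentage points fewer of the unit's ends covered than WT (exact permutation p = 0.0415 over 8000 arrangements). Leaving out 1 library at a time gave exact p-values of 0.003 to 0.0895, over 0.05 for 8 of the 18: mutant LPS replicate 1, WT LPS replicate 3, mutant LPS+IL4 replicates 1 and 3, WT LPS+IL4 replicates 2 and 3, mutant resting replicate 1 and WT resting replicate 1. Adjusted over the 21 elements the exact p was 0.29 and 0 elements passed. The number of covered ends on chromosome 12 was on average also lower in the mutant with LPS and at rest, but higher after LPS+IL4: 7688 ± 1187 in mutant and 9241 ± 1480 in WT LPS libraries, 11761 ± 3641 in mutant and 11110 ± 468 in WT LPS+IL4 libraries and 7615 ± 450.3 in mutant and 8402 ± 552.5 in WT resting libraries (SD, n = 3 each). Taken relative to that number the difference turned to 0.04 on the log2 scale (exact permutation p = 0.663).

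Relative to covered ends on chromosome 12, the unit's share differed by 0.17 ± 0.15 (log2, mutant over WT) with LPS (limma adjusted p = 0.571; 0% of 21 elements called). LPS against LPS+IL4 gave 0.47 ± 0.15 in mutant cells, which passed (limma adjusted p = 0.0145), where 66.7% of the elements were called, all higher. In WT cells it gave 0.21 ± 0.15 (limma adjusted p = 0.293; 0% called). The mutant call was lost without mutant LPS replicate 3 (limma adjusted p = 0.0846) or mutant LPS+IL4 replicate 2, the deepest library (0.0969). That call was a change of the share only. The covered unit ends averaged 49 in mutant LPS and 53 in mutant LPS+IL4 libraries, with ranges that overlapped (47 to 51 and 49 to 58). Those of chromosome 12, the divisor, averaged 7688 ± 1187 and 11761 ± 3641. The mutant value of 0.47 therefore does not show more contacts of the unit with LPS. LPS against resting gave -0.04 ± 0.15 in mutant and -0.16 ± 0.15 in WT cells (limma adjusted p = 0.839 and 0.806; 4.76% called in each). The LPS libraries were aligned with another tool and deposited without counts, so culture and deposit cannot be told apart in these comparisons.

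At the level of ends, 2 of 60 unit ends listed with LPS were covered in all 3 WT and none of the 3 mutant LPS libraries, at 113362088 and 113367200, and 0 the other way. Over the locus 0.293% of 7169 ends had the first pattern and 0.0418% the second. Both unit ends were weak where reads were counted, with at most 4.1 CPM in any library. None of the 10 strongest ends was missed by an LPS library.

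**Figure D5:**
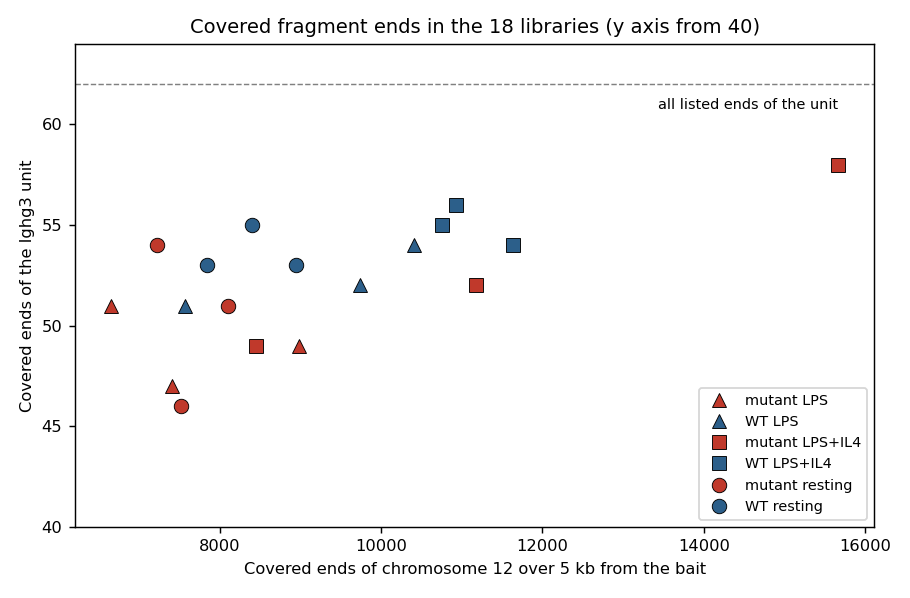
Covered ends of the Ighg3 unit (y axis, from 40; dashed line at the 62 listed ends) against covered ends of chromosome 12 over 5 kb from the bait (x axis), one point per library, for LPS (triangles), LPS+IL4 (squares) and resting cells (circles), mutant in red and WT in blue. The mutant LPS+IL4 library with the most covered ends on chromosome 12 (15660) also has the most in the unit (58).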

How the data were processed

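The members, elements and tests were chosen with earlier results of these data known. Per the submitters' processing notes, reads were aligned to mm10 with Bowtie (resting and LPS+IL4) or Bowtie2 (LPS); versions and filters are not given in the sources used here. The deposited files of 12 libraries hold raw read counts per 24 bp interval at a fragment end; those of the 6 LPS libraries list covered ends without a value. Intervals nearer than 5 kb to the bait were not used.

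Reads were summed over 21 elements of the Igh locus, over 15 gene body and upstream parts, over windows and per end (mean of at least 10 reads), and fitted with edgeR 4.0.16 in R 4.3.3 (robust quasi-likelihood, 4 group means, library size the chromosome 12 reads over 5 kb from the bait, no TMM). The elements of the 3'RR were placed by distance beyond Igha. Covered ends were fitted with limma 3.58.1 as log2 shares with a pseudocount of 1. Two-sided p-values were adjusted (Benjamini-Hochberg) within each table, with a threshold of 0.05. Single values were tested by exact permutation within conditions or genotypes. Named items were the unit, its parts, the 10 ends with the most reads, ends called, the 3 elements and 3 windows most like it, and the constant genes; the other ends named (the 2 shared ends and the 2 LPS ends), the division at 5 kb and the exact tests of parts were added after values were seen. Alternatives included DESeq2 1.42.0, which used its own size factors from the counts fitted and not the chromosome 12 reads. Python 3.11.15 did the rest.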

Additional observations from a re-analysis of the deposited data

How the results depend on the processing

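The interaction, the gene body at rest and the covered ends with LPS between genotypes passed under 0 of their alternatives. For the unit, the genotype change after LPS+IL4 passed in 19 of 29 alternatives and kept its sign in all 29. It did not pass with TMM factors (-0.46), DESeq2 (-0.42), a library size without the 3'RR (-0.39) or covered ends (-0.12). The 29 include the fits within each set of 6 libraries (-0.51 and -0.29), where 1 genotype had only 1 library per condition. The range without 1 library was -0.55 to -0.36. At rest it passed in 8 of 29: a bait neighbourhood of 2 kb (-0.38), no 3'RR in the library size (-0.38), no shared ends (-0.38), 17 elements (-0.38), and the library sets as a block (-0.33). It reversed with covered ends (0.049), a measure near its ceiling in the unit, and the range without 1 library was -0.46 to -0.31. Activation in mutant cells passed in 23 of 29. It did not without the 3'RR (-0.17) or with 5 kb upstream in place of 10 kb (-0.13), and the range without 1 library was -0.40 to -0.27. Within the library sets, of which 1 held only 1 mutant library per condition, the changes were -0.45 and -0.30. Activation in WT cells passed in 5 of 29: DESeq2 (-0.46), no shared ends (-0.26), library sets as a block (-0.27), the replicate block and 1 left-out library. It reversed with 5 kb upstream (0.065), and the range without 1 library was -0.37 to -0.18. The interaction reversed within the set with shared reads (0.10), and ranged from -0.17 to 0.018 without 1 library.

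The labels do not say that equal replicate numbers share an animal, and deviations of equal numbers correlated weakly (r of -0.143 to 0.26; 4 of 12 libraries were closest to their own number), though the shared reads followed the number within each genotype. Resting and LPS+IL4 libraries of equal number had r of 0.26, 0.122 and 0.0937 in mutant cells. In WT cells these were -0.0767, 0.0258 and -0.0743. Pairing was not assumed, since no label states it, but a pairing within genotypes is not excluded and the main activation tests ignore it. Activation was also fitted with the replicate number within genotype as a block. The unit's log2 changes were -0.27 in WT cells (edgeR adjusted p = 0.0168) and -0.35 in mutant cells (0.0022). For genotype the block joined mutant and WT libraries of equal number. It gave -0.46 after LPS+IL4 (edgeR adjusted p = 0.0057) and -0.38 at rest (0.0107). That pairing has no basis here. Equal numbers of mutant and WT had r of -0.143 to 0.019, and the shared reads did not follow the number between genotypes. These genotype values therefore only describe, though both are counted among the passing alternatives above. DESeq2 shifted the median activation change of all elements by -0.19 in WT and -0.15 in mutant cells, and a library size without the 3'RR by 0.11 and 0.18. DESeq2 called 1 unit end at rest against 0 by edgeR.

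With covered ends the genotype difference over conditions was -0.024, the upstream share differed between genotypes by 0.50 points, and the near to far ratio with activation by -0.027. Covered ends were near their ceiling in the unit, so they could hardly show such changes. The near to far genotype difference reached -0.49 with capped reads. Without 1 library, the covered ends over 3 conditions ranged from -6.0 to -3.49 points (0.042 in log2 relative to chromosome 12). LPS minus LPS+IL4 in mutant cells ranged over 0.31 to 0.63, and LPS minus resting in mutant cells over -0.17 to 0.078 (0.038 with covered ends of 1 Mb). Without 1 library, the upstream share ranged over -2.73 to -1.13 points for genotype and -3.03 to -1.44 for activation, the Ighg3 to Ighg1 genotype difference over -0.27 to -0.17, and the near to far genotype difference over -0.42 to -0.24. The part interactions were near 0 and reversed for the gene body without WT LPS+IL4 replicate 1 (0.091) and for the upstream part with TMM factors (0.0053). The causes of these changes were not tested.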
